A study of Homo sapiens with 6 samples.

Results

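The replication-dependent histone genes were examined in SW480 cells, an established line from a human colorectal adenocarcinoma classed as Dukes B. Cells were transfected for 48 h with 30 pmol of an siRNA against KHSRP or with a non-targeting scramble siRNA, both with 2 µl of the same lipid reagent, and each group held 3 arrays labelled as biological replicates. KHSRP encodes a protein with KH domains that binds RNA and is known for speeding the turnover of mRNAs with AU-rich elements. The histone rows were all rows of the deposited log2 table whose annotation names a gene of the clusters formerly called HIST1, HIST2 and HIST4 or bears a current H1-1 to H1-6, H2AC, H2BC, H3C or H4C symbol, without pseudogenes. There were 71 such rows of 70523, and they named 69 different histone genes. Of these rows, 6 named H1 genes, 17 H2A, 20 H2B, 12 H3 and 15 H4 genes, and 1 row named H2AC7 together with H3 genes. Among the H2B rows, 1 of H2BC18 also carried the name HIST2H3PS2 (now H3-7), which was not counted. The current names H2AC25 and H2BC26 also brought in 2 genes formerly called HIST3H2A and HIST3H2BB. A single symbol stood on 33 rows and several symbols on 38, and each shared row was counted as 1 unit.

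Nucleosomes wrap DNA around an octamer of the core histones H2A, H2B, H3 and H4, and the linker histone H1 binds where the DNA enters and leaves. Cells need new histones when they copy their DNA, and the replication-dependent genes supply them in S phase. Their mRNAs are known for ending in a conserved stem-loop, bound by SLBP, in place of a poly(A) tail, and they are degraded when DNA synthesis stops. Some of the genes are also described as giving polyadenylated transcripts outside S phase.

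Genes of a core histone type are known to have much alike coding sequences, which were not compared here. The promoters are shown, with motifs that mark H1 and H4 genes and an octamer found mostly in H2A and H2B genes. Promoter windows of 300 bases (250 before and 50 after the annotated start) were found for 64 of the 69 genes in RefSeq, build GRCh38.p14, and were searched on both strands for 5 motifs. CCAAT stood in all 6 H1, 16 H2A, 18 H2B and 11 H3 windows and in 3 of 13 H4 windows, against 35.7% of the 27305 promoters of the table. The octamer ATTTGCAT, known as a site of the POU factor OCT1 in H2B promoters, stood in 14 of 18 H2B and 11 of 16 H2A windows and in 1.80% of all promoters. AAACACA, known as the H1 box, stood in all 6 H1 windows and in 5.76% of all promoters. GGTCCG, found in the element that HINFP binds in H4 genes, stood in 12 of 13 H4 windows and in 11.2% of all promoters. TATAAA stood in 3 of 6 H1, 12 of 16 H2A, 12 of 18 H2B, 8 of 11 H3 and 7 of 13 H4 windows and in 12% of all promoters. A match is a description of these letters and not a measured binding site. The 150 bases before the start are given, 5′ to 3′ on the gene's strand with the motif matches in capitals, for 4 genes that had a row of their own and values described below, and for H4C5, the first name on the shared H4 row with the largest fitted difference.
H1-2, chr6:26056471-26056620, minus strand: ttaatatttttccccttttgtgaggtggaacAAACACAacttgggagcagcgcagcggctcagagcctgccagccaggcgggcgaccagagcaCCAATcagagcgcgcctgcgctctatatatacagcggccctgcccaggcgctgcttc
H2AC6, chr6:26124022-26124171, plus strand: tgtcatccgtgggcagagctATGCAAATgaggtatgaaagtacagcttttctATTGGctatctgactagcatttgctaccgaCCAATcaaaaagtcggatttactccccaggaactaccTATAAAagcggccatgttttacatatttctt
H2BC12, chr6:27146859-27147008, minus strand: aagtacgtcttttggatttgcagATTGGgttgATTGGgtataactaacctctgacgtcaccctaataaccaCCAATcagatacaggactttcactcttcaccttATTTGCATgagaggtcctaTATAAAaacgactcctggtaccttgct
H2BC21, chr1:149886683-149886832, minus strand: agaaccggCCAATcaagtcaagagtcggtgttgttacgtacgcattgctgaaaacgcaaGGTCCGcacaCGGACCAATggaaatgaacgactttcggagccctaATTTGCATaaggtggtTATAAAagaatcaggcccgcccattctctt
H4C5, chr6:26204460-26204609, plus strand: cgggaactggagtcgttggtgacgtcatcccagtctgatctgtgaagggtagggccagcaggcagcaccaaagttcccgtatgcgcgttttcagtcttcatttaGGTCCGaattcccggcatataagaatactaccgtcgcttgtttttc
The H2BC12 and H2BC21 promoters hold CCAAT boxes, the octamer and TATAAA, and in H2BC21 1 reverse-strand GGTCCG overlaps a CCAAT. The H2AC6 promoter also holds the octamer, on its other strand. The H1-2 promoter holds the H1 box and 1 CCAAT, and the stretch before H4C5 holds the GGTCCG core alone.

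Values are log2 intensities as deposited, made with RMA per the submitters' processing notes. Differences are KHSRP siRNA minus scramble siRNA, with the standard error (SE) of limma. Array medians over all rows ran from 4.30 to 4.38. The row annotated with KHSRP was at 5.59 ± 0.03 in KHSRP siRNA arrays and 5.66 ± 0.08 in scramble siRNA arrays (SD, n = 3 each), with a log2 fold change of -0.07 (SE 0.10, limma adjusted p = 0.900). The row of the siRNA target thus showed no clear loss of KHSRP RNA, and a knockdown could not be seen in these data. That row also gives no check of the group names, which rest on the labels alone. Differences below are between the siRNA groups as labelled. Of 10 colon epithelial markers, 7 lay above 4.72, the 95th percentile of 441 olfactory receptor rows, and KRT20, LGALS4 and CDH17 did not. Of 8 measured markers of other cells, only CD68 lay above it. A level near 4.72 is taken below as near background.

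No histone row passed limma's test after adjustment over all 70523 rows, and neither did any other row. The smallest adjusted p among the histone rows was 0.143. As a description, 59 of the 71 histone rows (83.1%) were fitted higher in KHSRP siRNA arrays and 12 lower, where 53.7% of all rows and 55.0% of annotated rows were fitted higher. The median log2 fold change was 0.25 over the histone rows and 0.02 over all rows. At an unadjusted limma p under 0.05, 21 histone rows (29.6%) were higher and 0 lower, where 6% of all rows were higher and 4.11% lower (10.1% in all). Among the 25324 annotated rows, 6.51% were higher and 4.46% lower (11% in all). The 3 KHSRP siRNA values all lay above the 3 scramble siRNA values in 20 histone rows (28.2%) and below them in 0, where the shares were 9.28% and 6.36% of all rows and 11.5% and 7.69% of annotated rows. Scramble siRNA replicate 2 and KHSRP siRNA replicate 3 weighed on these counts. Without scramble siRNA replicate 2, 11 histone rows were higher and 2 lower at an unadjusted p under 0.05, where 4.78% of all rows were higher and 3.64% lower. Without KHSRP siRNA replicate 3 the KHSRP siRNA values lay above in 31 histone rows and in 12.9% of all rows. Histone rows share sequence, and probes of a row can bind mRNAs of related genes, so the rows are not independent. The arrays measured RNA from whole cultures, in which more cells in S phase and more histone mRNA per cell cannot be told apart.

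**Figure D1:**
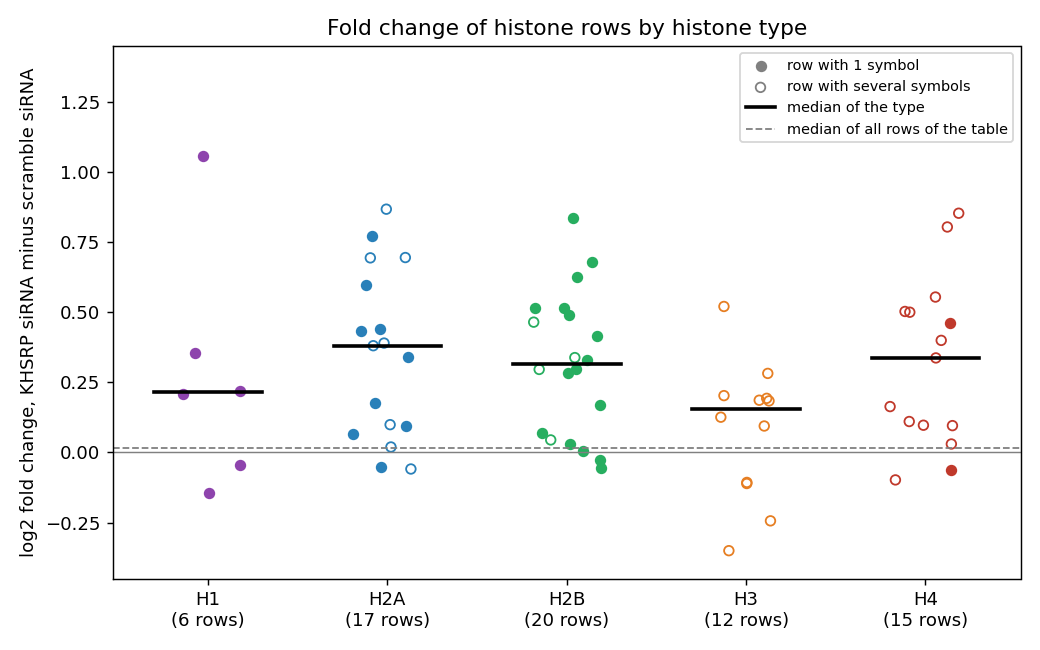
Log2 fold change (KHSRP siRNA minus scramble siRNA, vertical axis) of each histone row, by histone type; filled points are rows with 1 symbol, open points rows with several, black lines medians of a type, and the dashed line the median of all rows (0.02). Medians ran from 0.15 for H3 to 0.38 for H2A, and H1-2 had the largest value (1.06); the row naming both H2A and H3 genes is not drawn.

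Among linker histones, H1-2 had the largest fitted difference of all 71 rows and the other H1 genes had small ones. H1-2, a somatic H1 subtype, had log2 values of 10.15, 10.51 and 9.75 in KHSRP siRNA arrays, against 8.60, 8.91 and 9.73 in scramble siRNA arrays. The groups did not overlap, but the highest scramble siRNA array, replicate 3, lay only 0.013 below the lowest KHSRP siRNA array. The fitted log2 difference was 1.06 (SE 0.32, limma adjusted p = 0.332), a 2.08-fold difference with a 95% confidence interval from 1.22 to 3.55. H1-4, another somatic subtype, had values of 6.84, 7.05 and 6.66 in KHSRP siRNA arrays, against 6.52, 6.41 and 6.99 in scramble siRNA arrays. These groups overlapped, since scramble siRNA replicate 3 was above 2 of the KHSRP siRNA arrays, and the log2 fold change was 0.21 (SE 0.18). It was between 0.091 and 0.38 when single arrays were left out, lowest without scramble siRNA replicate 2 and highest without scramble siRNA replicate 3. The rows of H1-1, H1-3, H1-5 and H1-6, the last of these the testis subtype, had means between 3.25 and 4.44, below the olfactory receptor level, and log2 fold changes between -0.14 and 0.35. The H1 median was 0.21, or 0.10 without KHSRP siRNA replicate 2.

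**Figure D2:**
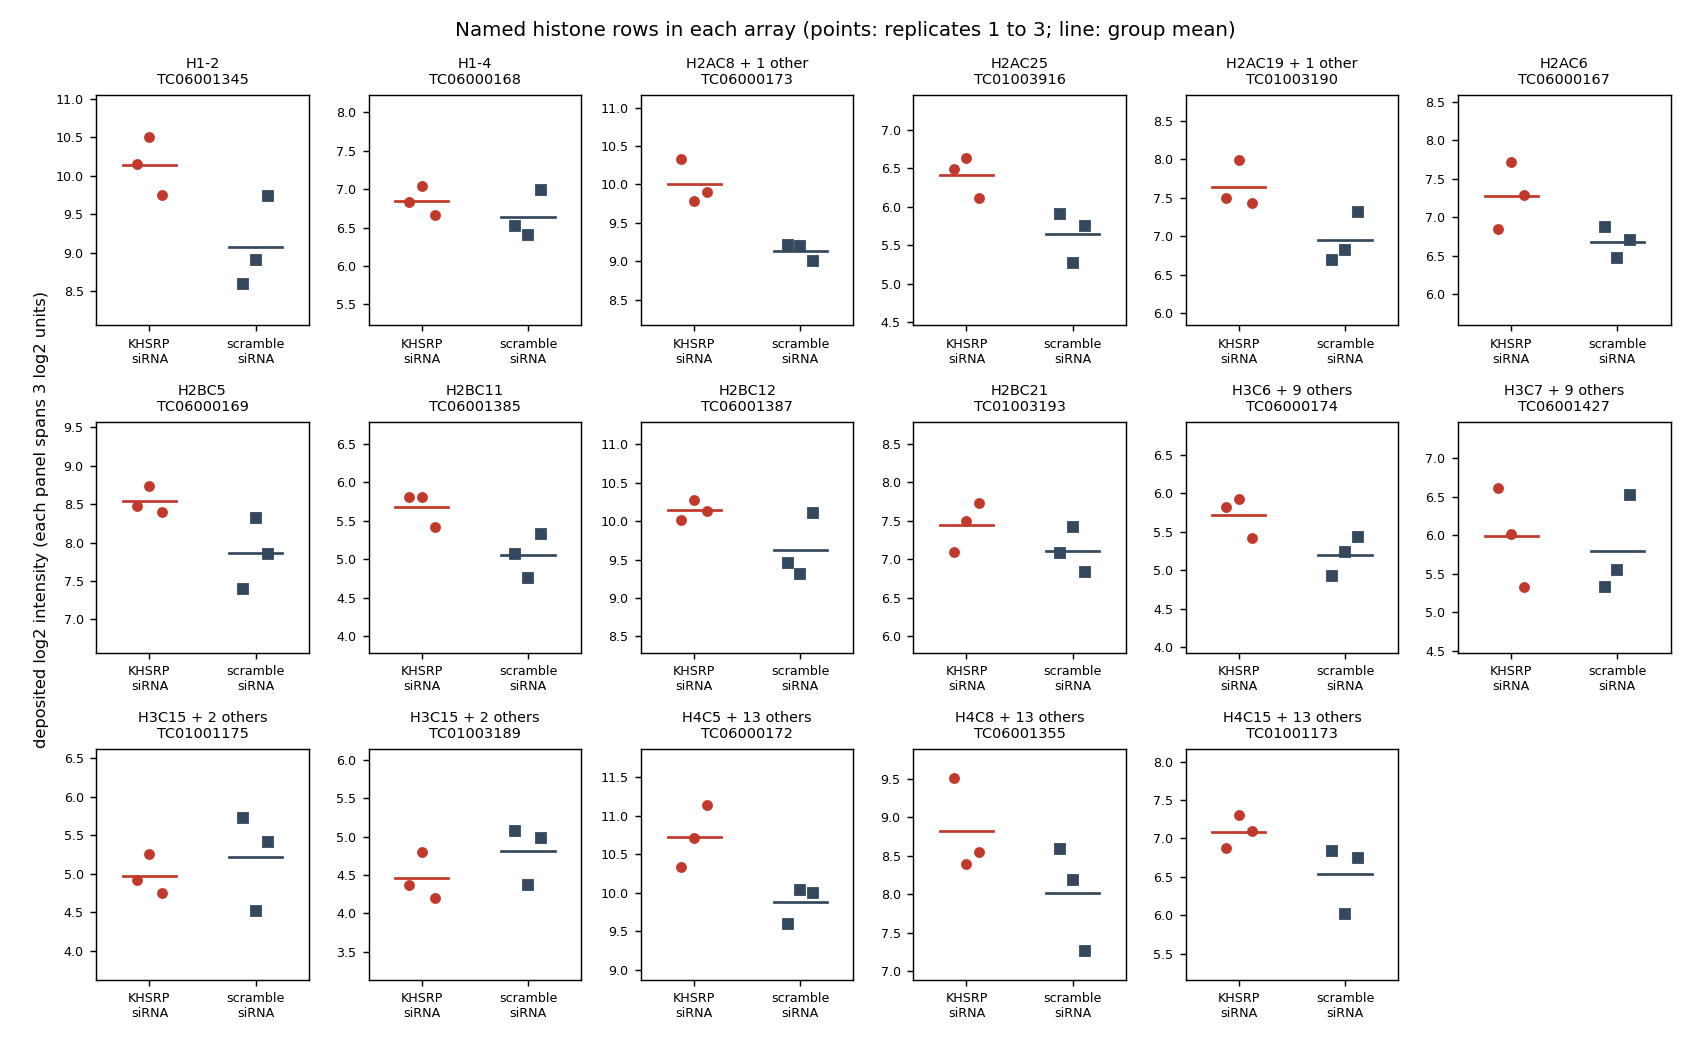
Deposited log2 intensity (vertical axis, spanning 3 log2 units in each panel) of the 17 named histone rows; circles are KHSRP siRNA arrays and squares scramble siRNA arrays, drawn left to right as replicates 1 to 3, with lines at group means. The row of H2AC8 and H2AC4 had the widest gap between the groups among the 17, at 9.78 to 10.33 in KHSRP siRNA arrays and 9.00 to 9.21 in scramble siRNA arrays.

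H2A genes encode the partner of H2B in the nucleosome. Their 17 rows had a median of 0.38 (0.24 without KHSRP siRNA replicate 2), and 15 were fitted higher. The row naming H2AC8 and H2AC4 had values of 10.33, 9.78 and 9.90 in KHSRP siRNA arrays, against 9.21, 9.20 and 9.00 in scramble siRNA arrays. The lowest KHSRP siRNA array lay 0.58 above the highest scramble siRNA array. Its log2 fold change was 0.87 (SE 0.16), a 1.82-fold difference (95% confidence interval 1.39 to 2.39), and its limma adjusted p of 0.143 was the smallest of the histone rows. A second row that names the same pair, in the other order, had a mean of 4.26 and a log2 fold change of 0.38 (SE 0.20).

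H2AC18 and H2AC19, a gene pair on chromosome 1, were named together on 2 rows. The brighter of these had values of 9.70, 10.11 and 9.54 in KHSRP siRNA arrays, against 8.74, 9.30 and 9.23 in scramble siRNA arrays. The other had values of 7.50, 7.99 and 7.43 in KHSRP siRNA arrays, against 6.68, 6.83 and 7.32 in scramble siRNA arrays. Both rows were separated between the groups, with log2 fold changes of 0.69 (SE 0.21) and 0.70 (SE 0.22). H2AC25, the former HIST3H2A, had values of 6.49, 6.64 and 6.11 in KHSRP siRNA arrays, against 5.91, 5.27 and 5.75 in scramble siRNA arrays. Its groups did not overlap either, and the log2 fold change was fitted at 0.77 (SE 0.21, limma adjusted p = 0.274). H2AC6, described as also giving polyadenylated transcripts and carrying the octamer shown above, had values of 6.84, 7.72 and 7.29 in KHSRP siRNA arrays, against 6.88, 6.47 and 6.71 in scramble siRNA arrays. Replicate 1 of both groups stood nearly level, and the log2 fold change was 0.60 (SE 0.23), or 0.38 without KHSRP siRNA replicate 2. H2AC20 and H2AC21 were at 0.095 (SE 0.15) and 0.17 (SE 0.34). The row shared by H2AC20 with H2AJ, a replication-independent H2A variant gene, was at 0.02 (SE 0.11), with a 95% confidence interval on the log2 scale from -0.24 to 0.27.

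H2B rows were the most numerous, and 18 of 20 were fitted higher, with a median of 0.31. H2BC5, H2BC12 and H2BC21 are the 3 H2B genes of the list described as also giving polyadenylated transcripts. H2BC5 had values of 8.48, 8.74 and 8.40 in KHSRP siRNA arrays, against 7.40, 8.33 and 7.85 in scramble siRNA arrays. H2BC12 had values of 10.02, 10.27 and 10.13 in KHSRP siRNA arrays, against 9.46, 9.31 and 10.11 in scramble siRNA arrays. H2BC21 had values of 7.10, 7.49 and 7.74 in KHSRP siRNA arrays, against 7.08, 7.43 and 6.83 in scramble siRNA arrays. The groups were separated for H2BC5 alone, and for H2BC12 scramble siRNA replicate 3 reached the KHSRP siRNA values. Their log2 fold changes were 0.68 (SE 0.24), 0.52 (SE 0.22) and 0.33 (SE 0.21), with limma adjusted p of 0.398, 0.491 and 0.696. H2BC5 was at 0.45 without scramble siRNA replicate 1. H2BC21 was at 0.18 and 0.19 without replicate 3 of KHSRP siRNA and of scramble siRNA, and at 0.50 without KHSRP siRNA replicate 1.

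H2BC11 stood on 2 rows of its own. The brighter had values of 5.81, 5.80 and 5.42 in KHSRP siRNA arrays, against 5.07, 4.76 and 5.33 in scramble siRNA arrays, and a log2 fold change of 0.63 (SE 0.18, limma adjusted p = 0.310). The dimmer, with a mean of 3.92 and below the olfactory receptor level, was at 0.83 (SE 0.23). The groups did not overlap in either of them. H2BC9 was at 0.52 (SE 0.16), with groups that did not overlap. The 3 rows that name the same 5 genes, H2BC4, H2BC6, H2BC7, H2BC8 and H2BC10, had log2 fold changes between 0.30 and 0.46. The row that names H2BC10 alone was at 0.004 (SE 0.11), where the interval ran from -0.25 to 0.26. H2BC15 was at 0.03 (SE 0.15), and H2BC1, a testis H2B gene, was at 0.07 (SE 0.14) with a mean of 2.95, the lowest of all histone rows. The octamer described above is given beside the values without a test. H2B genes with a row of their own and an octamer had a median of 0.37 over 12 rows, and those without it 0.29 over 4 rows. For H2A the medians were 0.13 over 6 rows and 0.60 over 2 rows, those of H2AC13 and H2AC25. Genes without a promoter window were left out, so not all 9 H2A genes with a row of their own are counted.

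All 12 rows of H3 genes were shared by several genes. Their median was 0.15, and 0.021 without KHSRP siRNA replicate 1, so that the sign rests on small values. Only 3 of the 12 rows had a mean above the olfactory receptor level. The row listing H3C6 first, with 9 further H3 genes, had values of 5.82, 5.93 and 5.42 in KHSRP siRNA arrays, against 4.93, 5.23 and 5.44 in scramble siRNA arrays. KHSRP siRNA replicate 3 fell just inside the range of the scramble siRNA arrays, and the log2 fold change was fitted at 0.52 (SE 0.19, limma adjusted p = 0.410). The row with the highest mean among H3 rows, listing H3C7 first, had values of 6.62, 6.02 and 5.33 in KHSRP siRNA arrays, against 5.33, 5.55 and 6.52 in scramble siRNA arrays. Both groups covered nearly the same range, and the log2 fold change of 0.19 (SE 0.41) ran from -0.12 to 0.56 when single arrays were left out.

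The H3C13, H3C14 and H3C15 genes of chromosome 1 were named together on 3 rows, and 2 of these had the lowest fitted values of all histone rows. The first had values of 4.92, 5.26 and 4.75 in KHSRP siRNA arrays, against 5.72, 4.52 and 5.41 in scramble siRNA arrays, and a log2 fold change of -0.24 (SE 0.31). The second had values of 4.38, 4.80 and 4.20 in KHSRP siRNA arrays, against 5.08, 4.37 and 4.98 in scramble siRNA arrays, and a log2 fold change of -0.35 (SE 0.24). Its mean over all arrays, 4.63, lay below the olfactory receptor level, which only its scramble siRNA mean of 4.81 passed. In both rows, scramble siRNA replicate 2 was the low array of its group and the groups overlapped. When single arrays were left out, the first ran from -0.59 to 0.0083 and the second from -0.57 to -0.22, with both ends set by scramble siRNA replicates 2 and 1. The last of the 3 was at 0.28 (SE 0.13) with a mean of 3.82. Rows that carry the same gene names thus differed in sign.

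H4 genes encode the most conserved histone. Of their 15 rows 13 carried the same 14 names, H4C7 and H4C3 had a row each, and the type median was 0.34, or 0.23 without scramble siRNA replicate 2. The row listing H4C5 first had values of 10.34, 10.72 and 11.14 in KHSRP siRNA arrays, against 9.60, 10.04 and 10.00 in scramble siRNA arrays. The groups did not overlap, and the log2 fold change was fitted at 0.85 (SE 0.23, limma adjusted p = 0.262), a 1.81-fold difference with a 95% confidence interval from 1.25 to 2.62. The row listing H4C8 first had values of 9.51, 8.39 and 8.55 in KHSRP siRNA arrays, against 8.59, 8.18 and 7.26 in scramble siRNA arrays. Its log2 fold change of 0.80 was nearly as large, but replicates of both groups were spread over more than 1 log2 unit, the groups overlapped and the SE was 0.41. Leaving out KHSRP siRNA replicate 1 gave 0.46, and leaving out scramble siRNA replicate 3 gave 0.43. Of 3 rows listing H4C15 first, 1 had values of 6.87, 7.30 and 7.10 in KHSRP siRNA arrays, against 6.84, 6.02 and 6.74 in scramble siRNA arrays. KHSRP siRNA replicate 1 lay just above scramble siRNA replicate 1, and the log2 fold change was 0.55 (SE 0.24), or 0.30 without scramble siRNA replicate 2. Another, with a mean of 6.89, had overlapping groups and was at 0.40 (SE 0.20), and the last, with a mean of 3.40, was at 0.11 (SE 0.19). H4C3 was at 0.46 (SE 0.23). H4C7, with a mean of 3.09, was at -0.06 (SE 0.20). The rows listing H4C13 and H4C2 first had means of 3.54 and 3.56, below the olfactory receptor level, and were both at 0.50 (SE 0.12 and 0.13) with groups that did not overlap. The 13 rows with the same 14 names ran from -0.10 to 0.85 in log2 fold change and from 3.34 to 10.30 in mean level. The names on a row therefore do not tell which H4 gene gave its signal.

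**Figure D3:**
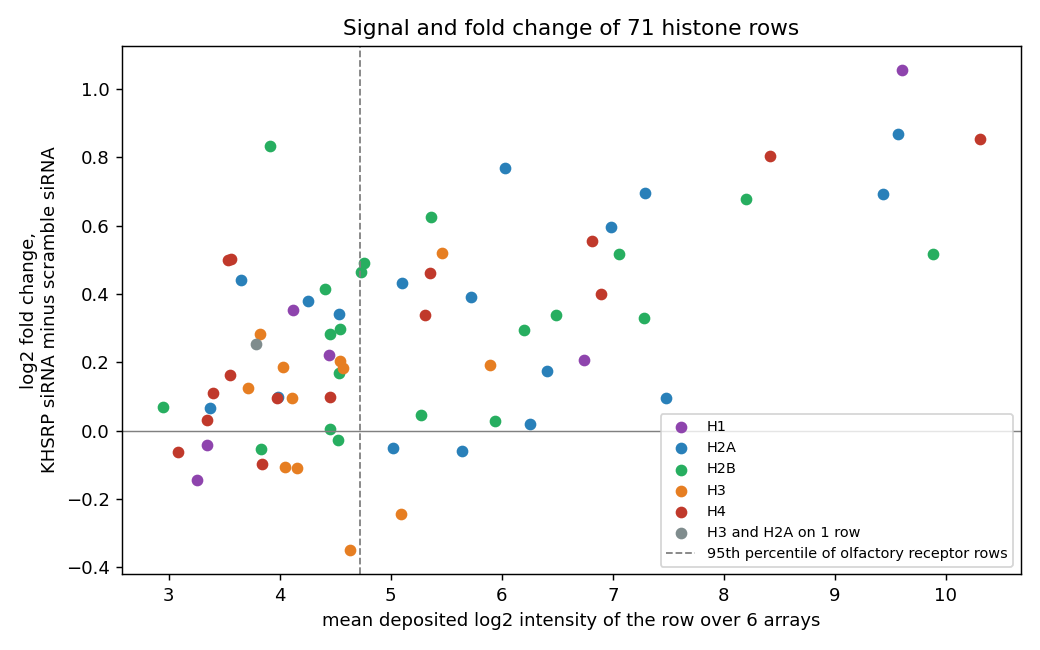
Mean deposited log2 intensity over 6 arrays (horizontal axis) and log2 fold change (vertical axis, KHSRP siRNA minus scramble siRNA) of the 71 histone rows, coloured by histone type; the dashed line is the 95th percentile of olfactory receptor rows (4.72). The rows with means above 8 all had log2 fold changes of at least 0.52, and rows left of the dashed line had a median of 0.13.

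The fitted difference was larger in rows with more signal. Of the 34 rows whose mean over 6 arrays lay above the olfactory receptor level, 31 were fitted higher, with a median of 0.45, and 16 (47.1%) were higher at an unadjusted p under 0.05. Of the 12866 annotated rows above that level, 11% were higher and 7.76% lower at that p (18.8% in all), 54.2% were fitted higher and the median was 0.02. Groups did not overlap in 13 of the 34 histone rows (38.2%), all higher, and in 16.3% of those annotated rows with KHSRP siRNA higher and 11.5% with it lower. The 37 dimmer histone rows had a median of 0.13. Across the 71 rows, Pearson's r between mean level and log2 fold change was 0.61 and Spearman's rho 0.51, as a description over rows that share arrays and sequence. Rows with 1 symbol had a median of 0.30 and those with several 0.20. By location of the histone genes that defined the rows, the median was 0.17 over the 13 rows of chromosome 1 and 0.25 over the 45 rows of chromosome 6. It was 0.34 over the 13 H4 rows that name genes of chromosomes 1, 6 and 12. The chromosome 1 rows take in the row that H2AC20 shares with H2AJ, at 0.02. The platform's identifier of that row is of chromosome 12, so the chromosome 1 median depends on this placing. The 5 genes described as also giving polyadenylated transcripts (H1-2, H2AC6, H2BC5, H2BC12 and H2BC21) were all fitted higher, with a median of 0.60, and all of them lay above the olfactory receptor level.

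**Figure D4:**
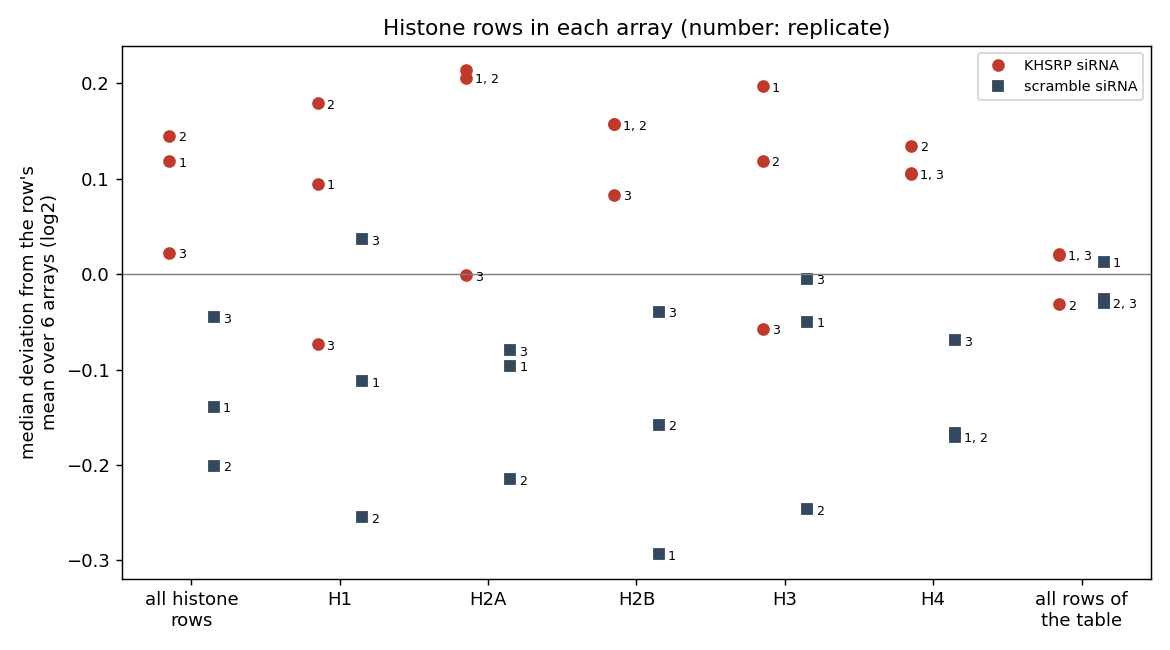
Median over histone rows of the deviation from the row's mean over 6 arrays (vertical axis, log2), for each array and histone type; circles are KHSRP siRNA arrays, squares scramble siRNA arrays, and numbers give the replicate. Over all histone rows the KHSRP siRNA arrays were at 0.02 to 0.14 and the scramble siRNA arrays at -0.20 to -0.05, while over all rows of the table the groups overlapped near 0.

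The arrays of a group did not carry the difference equally. The median deviation of the 71 histone rows from their own means was 0.12, 0.14 and 0.02 in KHSRP siRNA replicates 1, 2 and 3, against -0.14, -0.20 and -0.05 in the scramble siRNA replicates. KHSRP siRNA replicate 3 and scramble siRNA replicate 3 were thus the nearest pair of arrays from different groups. KHSRP siRNA replicate 3 was the lowest of its group in 34 of 71 rows, and scramble siRNA replicate 2 the lowest of its group in 32. By type, the 3 KHSRP siRNA arrays lay above the 3 scramble siRNA arrays for H2A, H2B and H4. For H1 and H3 the groups overlapped, because KHSRP siRNA replicate 3 (-0.07 and -0.06) lay below scramble siRNA replicate 3 (0.04 and -0.005). Over all rows of the table, the same measure stayed between -0.03 and 0.02 in every array.

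Genes that make, process and degrade histone mRNA were read from lists of pathway genes, in which no member passed limma's adjusted threshold. Of 20 measured genes of histone transcription and 3′ end processing, 0 were higher and 0 lower at an unadjusted p under 0.05, with a median of 0.03. SLBP, which binds the stem-loop, was at 9.85 ± 0.24 in KHSRP siRNA arrays and 9.83 ± 0.07 in scramble siRNA arrays (SD, n = 3 each), a log2 fold change of 0.02 (SE 0.14). NPAT, the cyclin E-CDK2 substrate that drives histone transcription, was at 0.04 (SE 0.12). The ends of this list were CSTF2T, a cleavage factor subunit gene, at 0.36 (SE 0.28) and CASP8AP2, which encodes the processing factor FLASH, at -0.26 (SE 0.16). Of 16 histone mRNA decay genes, 4 were higher (25%) and 0 lower at that p, against 6% and 4.11% of all rows, with a median of -0.03. Those 4 were the LSm ring genes LSM3 (0.61, SE 0.21) and LSM6 (0.46, SE 0.12), the decapping cofactor gene PNRC1 (0.38, SE 0.11) and the 5′ to 3′ exonuclease gene XRN1 (0.31, SE 0.13). The decapping gene DCP1A had the lowest value, -0.22 (SE 0.15). Many genes of this list and the next ones lay above the olfactory receptor level. Of annotated rows above that level, 11% were higher and 7.76% lower at an unadjusted p under 0.05, larger shares than those of all rows.

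Histone genes outside the replication-dependent clusters had a median of 0.14 over 10 rows, of which 2 (20%) were higher and 0 lower at an unadjusted p under 0.05, against 6% and 4.11% of all rows. H2AZ2, a replication-independent H2A variant gene, had values of 11.90, 12.08 and 12.27 in KHSRP siRNA arrays, against 11.72, 11.50 and 11.32 in scramble siRNA arrays. Its groups did not overlap, with a log2 difference of 0.57 (SE 0.15, limma adjusted p = 0.260). Its paralog H2AZ1 was at 0.01 (SE 0.12), with a 95% confidence interval from -0.27 to 0.30. A row shared by H3-3A and H3-3B, the genes of the replacement histone H3.3, was at 0.32 (SE 0.14). H3-4, a testis H3 gene, was lowest at -0.23 (SE 0.20).

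Histone chaperones, which carry new histones to DNA, had a median of -0.11 over 24 rows, with 2 higher and 4 lower at an unadjusted p under 0.05 (8.33% and 16.7%, against 6% and 4.11% of all rows). The share higher is near that of all rows. Of annotated rows above the olfactory receptor level, 11% were higher and 7.76% lower. ASF1A, a chaperone of H3 and H4, had values of 9.20, 9.45 and 9.09 in KHSRP siRNA arrays, against 7.89, 7.92 and 8.50 in scramble siRNA arrays. The groups did not overlap, and the log2 fold change was fitted at 1.14 (SE 0.19, limma adjusted p = 0.130). The paralog ASF1B was at -0.06 (SE 0.10). CHAF1B, a subunit gene of the replication-coupled chaperone CAF-1, had values of 8.06, 7.83 and 7.76 in KHSRP siRNA arrays, against 8.24, 8.35 and 8.35 in scramble siRNA arrays, and the lowest log2 fold change of the list, -0.43 (SE 0.11, limma adjusted p = 0.262).

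Genes listed under S phase and DNA replication were mostly fitted lower. Of 34 measured S phase and DNA replication rows, 0 were higher and 5 lower at an unadjusted p under 0.05 (14.7%, against 4.11% of all rows), and 23 of 34 were fitted lower, with a median of -0.09. The helicase subunit gene MCM3 had the lowest value, -0.44 (SE 0.17, limma adjusted p = 0.430), and TK1, a thymidine kinase gene, the highest, 0.32 (SE 0.13). Of 21 G2/M rows, 6 were higher and 2 lower at that p (28.6% and 9.52%, against 6% and 4.11% of all rows), with a median of 0.10. ANLN, which encodes the ring protein anillin, was highest at 1.16 (SE 0.18, limma adjusted p = 0.112), and BUB1B, a spindle checkpoint kinase gene on a shared row, lowest at -0.32 (SE 0.11). Beside both lists, 11% of annotated rows above the olfactory receptor level were higher and 7.76% lower at that p. The part of cell cycle distribution in the histone values was not tested.

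**Figure D5:**
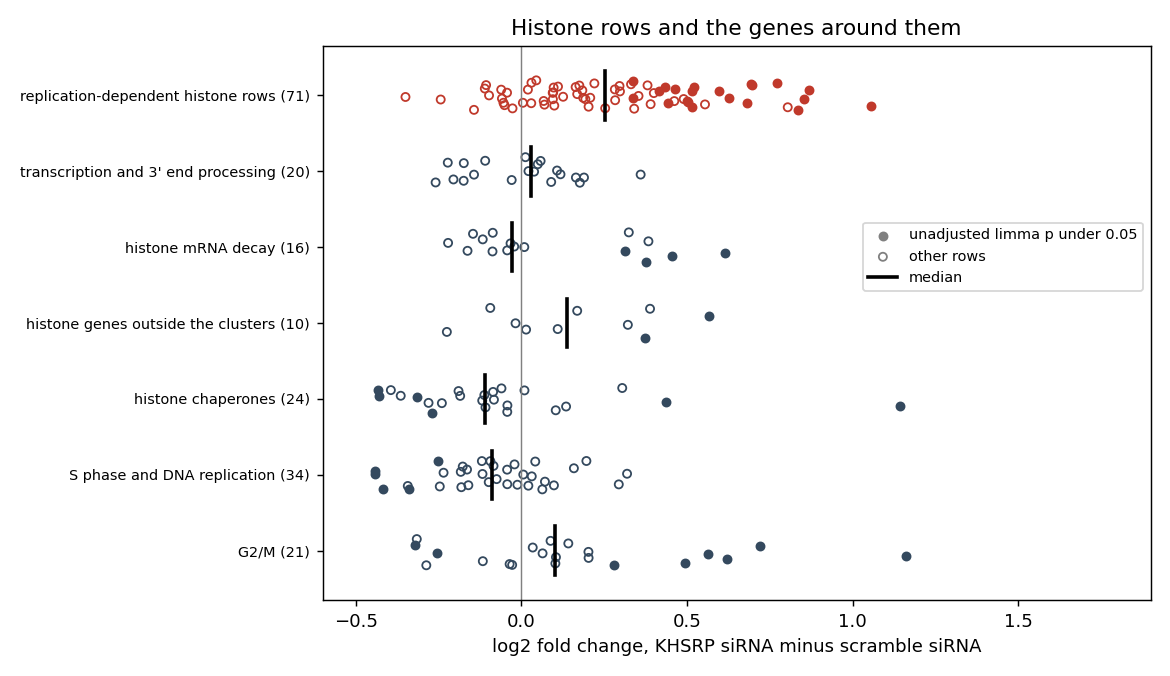
Log2 fold change (horizontal axis, KHSRP siRNA minus scramble siRNA) of the histone rows and of the rows of 6 lists of related genes, with the number of rows in brackets; filled points had an unadjusted limma p under 0.05, open points did not, and black lines are medians. The histone rows had a median of 0.25, while the S phase list was at -0.09 and the transcription and 3′ end processing list at 0.03.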

How the data were processed

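RNA of 6 cultures was measured on Affymetrix arrays after whole-transcriptome amplification and biotin labelling, per the labels' protocols. The authors deposited 1 table of log2 intensities. Affymetrix Expression Console, RMA and Transcriptome Analysis Console are named with build hg19 in the submitters' processing notes; their versions are not given here. Array maxima were 19.72 to 19.93, above what RMA usually gives, and whether another step followed RMA is unknown. Arrays carry no depth, and their number limits the precision.

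Rows were named by the platform annotation, updated through RefSeq gene tables (GRCh38.p14), and 45199 rows were unnamed here. All 70523 rows were fitted with limma 3.58.1 in R 4.3.3 (lmFit, eBayes), without covariates, and p-values, two-sided, were adjusted by Benjamini-Hochberg over all rows. The procedure was tested on simulated data. No scan date or batch was used here. Of the pathway lists, the row with the fewest symbols, then the brightest, stood for a gene; some listed genes are not reported here, and H2AJ, H2AC25 and H2BC26 were counted as histone rows.

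The members and lists were chosen with earlier results of these data known. Values per array are given for the 3 rows of each type with the largest absolute difference among rows with a group mean above 4.72. They are also given for the brightest row of each type and 5 genes described as also giving polyadenylated transcripts. The brighter row naming H2AC18 and H2AC19 falls outside these rules and was added beside its partner row. Of each other list, the highest and lowest members are named. Any other gene was chosen for its role or with its value in view. p-values measure the spread between the samples labelled biological replicates. Alternatives were other normalizations, covariates, row filters, limma settings and leaving out each array.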

Additional observations from a re-analysis of the deposited data

How the results depend on the processing

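No histone row was called by limma under any of the 17 alternatives, where the number higher at an unadjusted p under 0.05 ran from 11 to 24. Of all rows fitted, 4.6% to 9.14% were higher at that p, depending on the setting. Of 255 values of the 17 named rows under the alternatives, 251 kept the sign of the reported value and 4 did not. These 4 belonged to 2 H3 rows. The replicate block, the row filters and the intensity trend with robust prior leave a fitted difference unchanged by construction. Most named rows were also chosen for large differences in the same arrays, so kept signs are no independent support. The row listing H3C7 first was at -0.024 with array weights, and ran from -0.12 to 0.56 when single arrays were left out. The first of the H3C15 rows ran from -0.59 to 0.0083 when single arrays were left out. The cause was not tested. Leaving out single arrays gave 11 to 21 histone rows higher and 0 to 2 lower at an unadjusted p under 0.05. Of all rows, 4.6% to 6.24% were then higher and 3.14% to 4.42% lower at that p. In 22 to 31 histone rows KHSRP siRNA was higher without overlap, against 12.9% to 17.3% of all rows. Fewer arrays make such separation easier. Type medians with single arrays left out were 0.24 to 0.46 for H2A, 0.021 to 0.18 for H3 and 0.23 to 0.39 for H4. Among rows above the median level of all rows, the median was 0.34 over histone rows and 0.46 over H4 rows. With the 33 rows of 1 symbol, fewer by construction, 11 (33.3%) were higher at an unadjusted p under 0.05, against 6% of all rows. Groups did not overlap in 9 (27.3%), against 9.28% of all rows with KHSRP siRNA higher. The H4 median was 0.20, over the rows of H4C3 and H4C7 alone. A filter on a group mean above the olfactory receptor level favours rows high in 1 group. With it, 13 histone rows did not overlap. Annotated rows were filtered only on the mean over all arrays, where 16.3% were higher without overlap and 11.5% lower. On that other filter, 13 of 34 histone rows (38.2%) were higher without overlap. Medians with the group mean filter were 0.43 over all, 0.63 for H1 (H1-2 and H1-4 alone), 0.46 for H2B, -0.026 for H3 and 0.51 for H4. The H3 value takes in 1 row that passed through its scramble siRNA mean, and over the 3 H3 rows with a mean over all arrays above that level the median was 0.19. Which type had the highest or lowest median changed between settings. With annotated rows only, limma called 181 rows of the table, with 1 row per gene 170 and with array weights 34, none of them histone rows, against 0 over all rows, where 7130 had an unadjusted p under 0.05. Whether equal replicate numbers pair the samples is unknown, and 3 arrays per group cannot settle it. Their deviations from group means correlated at 0.118, 0.0283 and -0.066, and not every array correlated best with its own number. With the replicate block, 0 histone rows were called and 19 were higher at an unadjusted p under 0.05, against 6.01% of all rows. Signal over background limits 37 histone rows, which had means below 4.72.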
